A study of Mus musculus with 8 samples.

Results

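The 10 genes described here mark or are secreted by the liver sinusoidal endothelial cell (LSEC), and were read in whole liver. They were chosen by symbol in the GRCm38 annotation: *Stab1*, *Stab2*, *Clec4g*, *Lyve1*, *Kdr*, *Pecam1*, *Bmp2*, *Bmp6*, *Wnt2* and *Rspo3*. Each matched 1 of the 46078 gene identifiers in the deposited counts, and 10 of 10 had enough counts to be tested among 13856 genes.

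The study asked what the splicing factor RBFOX2 does in the liver. The livers compared here came from 4 LWT mice and 4 LΔRbfox2 mice, labelled CD_WT and CD_Rbfox2KO, with 1 poly(A) RNA-seq library per liver. All carried *Rbfox2* alleles flanked by LoxP sites, and in LΔRbfox2 mice a Cre recombinase under the albumin promoter deletes *Rbfox2* in hepatocytes, so the endothelial cell itself is not the cell that is targeted. The labels give a chow (control) diet (CD) for 12 weeks and the series text gives 16 h of fasting. The study's methods state a longer time on the diet and, where not said otherwise, male mice on C57BL6/J, *Rbfox2* LoxP and Albumin-cre stocks. The age at harvest is not stated in the labels.

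LSECs line the blood channels of the liver lobule and lack a continuous basement membrane, so that plasma reaches hepatocytes through open pores. They clear waste molecules from blood through scavenger receptors and lectins, and they send signals to hepatocytes. BMP2 and BMP6 from these cells switch on hepcidin, the hormone of iron control, in hepatocytes, and WNT2 and RSPO3 from endothelial cells near the central vein sustain Wnt signalling in the hepatocytes around it. As the RNA came from whole liver, fewer LSECs and less RNA of these genes per LSEC cannot be told apart.

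Levels are in CPM, the counts of a gene scaled to a common library total after normalisation by the TMM method. *Rbfox2* itself was at 17.1, 10.4, 11.4 and 18.3 CPM in LWT livers 1 to 4 and at 4.61, 6.09, 2.24 and 3.19 CPM in LΔRbfox2 livers 1 to 4, so no LΔRbfox2 liver reached the lowest LWT liver. Total counts per liver ranged from 37482458 to 56177588, which puts 3 counts at 0.0534 to 0.08 CPM if TMM factors are left out. These factors raise that level in LΔRbfox2 livers 3 and 4 and lower it in the other livers. LΔRbfox2 livers 3 and 4 stood apart in normalisation, with TMM factors of 0.724 and 0.776 against 1.02 to 1.14 in the other 6 livers. They also had the steepest tilts against long genes: the slope of a library's log2 CPM deviations on log2 exonic length was −0.174 and −0.168 there, and between −0.0678 and 0.150 in the other livers. Per 10 points of GC content the slope was −0.176 and −0.238 in LΔRbfox2 livers 3 and 4, and from 0.00186 to 0.169 in the other livers. Each of the 10 genes is therefore given with and without these livers.

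None of the 10 genes passed the test of a difference between the genotypes. With an adjusted *P* of at most 0.05 in the edgeR quasi-likelihood test, 0 of 10 were called, where 0.0% of the 13856 genes tested were called. The deleted gene *Rbfox2* was not called either, at a log2 fold change of −1.82 (edgeR adjusted *P* = 0.504, exact permutation *P* = 0.0286 over 70 regroupings). In edgeR this threshold thus missed a known deletion, so 0 of 10 called there does not show that the 10 genes were unchanged. DESeq2 called *Rbfox2* at the same threshold (DESeq2 adjusted *P* = 0.000296). It called 9 of 23751 genes, with 0 of the 10 among them, which does not show them unchanged either. At an unadjusted *P* under 0.05, edgeR, DESeq2 and limma-voom called 0 of the 10, and edgeR called 9.79% of all genes tested. The livers of the 2 genotypes overlapped for 10 of 10 genes, whereas 2.28% of all genes tested had no overlap. In sign, 4 of the 10 were higher and 6 lower in LΔRbfox2 livers, with a median log2 fold change of −0.12, beside a median of −0.02 and 51.6% of genes lower over all genes tested. The sum of the 10 genes was 119, 95, 87.3 and 88.0 CPM in LWT livers and 93.9, 98.1, 70.3 and 73.8 CPM in LΔRbfox2 livers.

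**Figure D1:**
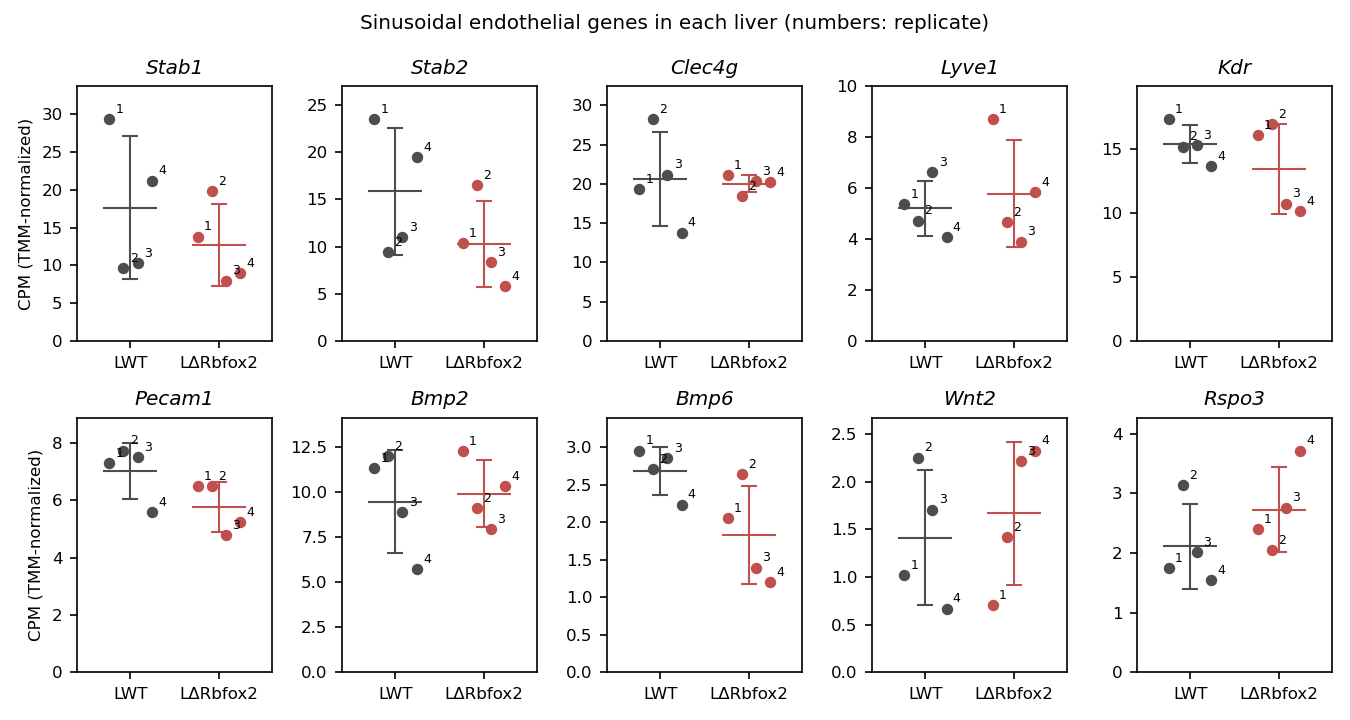
CPM (TMM-normalised) of each of the 10 genes in the 4 LWT livers (grey) and 4 LΔRbfox2 livers (red); numbers are replicates, bars are the mean and SD, and each axis starts at 0. The genotypes overlap in 10 of 10 panels, and LΔRbfox2 livers 3 and 4 are the lowest of the 8 for *Stab1*, *Stab2*, *Kdr*, *Pecam1* and *Bmp6*.

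The stabilins and *Wnt2* had the widest spread between livers: the highest liver had 4.04 times the level of the lowest for *Stab2*, 3.68 times for *Stab1* and 3.48 times for *Wnt2*, against 1.61 to 2.45 times for the other 7 genes. *Stab1* (ENSMUSG00000042286, chr14:31139013-31168641 of GRCm38, minus strand) encodes stabilin 1, an endocytic receptor for modified lipoproteins and matrix fragments that some macrophages carry too. It was at 29.3, 9.62, 10.3 and 21.2 CPM in LWT livers 1 to 4 and at 13.8, 19.8, 7.97 and 9.01 CPM in LΔRbfox2 livers 1 to 4. LWT livers 1 and 4 and LΔRbfox2 liver 2 were high. The log2 fold change was −0.47, with a limma-voom SE of 0.41, a 95% interval from −1.29 to 0.54 and an edgeR adjusted *P* of 0.630. Without LΔRbfox2 livers 3 and 4 it was −0.07. Single livers moved it as well, to −0.13 without LWT liver 1 and to −0.78 without LΔRbfox2 liver 2.

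*Stab2* (ENSMUSG00000035459, chr10:86841198-87008025, minus strand) encodes stabilin 2, the main receptor that removes hyaluronan from blood. It was at 23.5, 9.44, 11 and 19.5 CPM in LWT livers and at 10.3, 16.5, 8.32 and 5.82 CPM in LΔRbfox2 livers. The same livers as for *Stab1* were high. On the log2 scale the fold change was −0.62 (SE 0.37, 95% interval −1.42 to 0.25, edgeR adjusted *P* = 0.548), the lowest of the 10. Without LΔRbfox2 liver 2 it was −0.95, at an unadjusted edgeR *P* of 0.0220 and an adjusted *P* of 0.150. Without LWT liver 1 it was −0.39, at an unadjusted edgeR *P* of 0.327. With LΔRbfox2 livers 3 and 4 left out it was −0.24.

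The start-site windows of both stabilins are shown because their levels had one of the highest correlations across livers, and that of *Kdr* because it had the highest, with *Bmp6*, whose window lies in an annotated exon and is not printed. The bases run 5′ to 3′ on the gene's strand, from 250 bases before the RefSeq start up to the first base of an annotated exon, and come from RefSeq on GRCm38.p6. They are chr14:31168642-31168891 for *Stab1*, chr10:87008026-87008192 for *Stab2* and chr5:75978459-75978705 for *Kdr*, all on the minus strand, and capitals mark a match to CAGGAAG.
Stab1: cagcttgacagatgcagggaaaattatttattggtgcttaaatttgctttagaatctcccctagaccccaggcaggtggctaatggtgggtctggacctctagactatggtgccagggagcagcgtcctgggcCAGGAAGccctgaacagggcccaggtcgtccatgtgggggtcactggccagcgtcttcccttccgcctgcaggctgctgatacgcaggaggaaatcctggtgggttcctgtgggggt
Stab2: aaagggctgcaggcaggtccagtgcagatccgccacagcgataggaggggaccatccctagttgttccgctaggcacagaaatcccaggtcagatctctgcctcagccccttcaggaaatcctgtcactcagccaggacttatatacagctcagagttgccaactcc
Kdr: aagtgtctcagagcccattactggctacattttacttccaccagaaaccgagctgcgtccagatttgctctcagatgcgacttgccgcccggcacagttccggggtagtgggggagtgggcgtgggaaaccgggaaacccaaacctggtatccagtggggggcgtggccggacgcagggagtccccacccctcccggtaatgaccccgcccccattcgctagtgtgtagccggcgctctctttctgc

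Windows were available for 6 of the 10 genes (*Stab1*, *Stab2*, *Clec4g*, *Kdr*, *Bmp6* and *Wnt2*). Their whole 250 bases before the start, exonic bases included, were searched on both strands for 4 motifs of 3 factor families that act in endothelium. The ETS motif CAGGAAG occurred in 1 of the 6 windows, 117 bases before the *Stab1* start, and in 10.8% of the 32851 windows of the table. The other ETS motif, CCGGAAG, was in 0 of the 6 and in 6.91% of all windows. The GATA motif AGATAA was in 0 of the 6 and in 9.99% of all windows, and the forkhead motif TGTTTAC in 0 of the 6 and in 3.17%. Any of the 4 was found in 27.9% of all windows, beside 1 of the 6 here, and with 1 match in the windows printed no 2 motifs overlap there.

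*Clec4g* (ENSMUSG00000074491, chr8:3707064-3720651, minus strand) encodes LSECtin, a C-type lectin of the LSEC surface. It was at 19.3, 28.2, 21.2 and 13.8 CPM in LWT livers and at 21.1, 18.5, 20.3 and 20.2 CPM in LΔRbfox2 livers. The LΔRbfox2 livers were close together (coefficient of variation 5.55%) and lay within the LWT range, in which liver 2 was high and liver 4 low. The log2 fold change was −0.04 (SE 0.21, 95% interval −0.48 to 0.48, edgeR adjusted *P* = 0.936), and −0.09 without LΔRbfox2 livers 3 and 4.

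*Lyve1* (ENSMUSG00000030787, chr7:110850607-110863239, minus strand) encodes a hyaluronan receptor shared with lymphatic endothelium. It was at 5.38, 4.72, 6.63 and 4.08 CPM in LWT livers and at 8.70, 4.67, 3.90 and 5.85 CPM in LΔRbfox2 livers. LΔRbfox2 liver 1 was highest and liver 3 lowest, so the LWT livers lay within the LΔRbfox2 range. On the log2 scale the fold change was 0.15 (SE 0.27, 95% interval −0.50 to 0.71, edgeR adjusted *P* = 0.806), and 0.33 without LΔRbfox2 livers 3 and 4.

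Of the genes that all endothelium shares, *Kdr* (ENSMUSG00000062960, chr5:75932827-75978458, minus strand) encodes VEGFR2, the main signalling receptor for VEGF-A. It was at 17.3, 15.2, 15.3 and 13.7 CPM in LWT livers and at 16.1, 16.9, 10.7 and 10.1 CPM in LΔRbfox2 livers. LΔRbfox2 livers 1 and 2 lay within the LWT range and livers 3 and 4 below it. The log2 fold change was −0.19 (SE 0.21, 95% interval −0.67 to 0.25, edgeR adjusted *P* = 0.692), and it turned to 0.08 without LΔRbfox2 livers 3 and 4. It was −0.32 without LΔRbfox2 liver 2 and −0.07 without LΔRbfox2 liver 4.

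*Pecam1* (ENSMUSG00000020717, chr11:106654217-106750628, minus strand) encodes the junction protein CD31. It was at 7.29, 7.73, 7.51 and 5.60 CPM in LWT livers and at 6.49, 6.51, 4.8 and 5.23 CPM in LΔRbfox2 livers. LWT liver 4 was the lowest of its group and lay among the LΔRbfox2 livers, while the other 3 LWT livers lay above all LΔRbfox2 livers. On the log2 scale the fold change was −0.29 (SE 0.19, 95% interval −0.70 to 0.15, edgeR adjusted *P* = 0.568), and −0.14 without LΔRbfox2 livers 3 and 4.

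Among the secreted signals, *Bmp2* (ENSMUSG00000027358, chr2:133552159-133562885, plus strand) and *Bmp6* (ENSMUSG00000039004, chr13:38345107-38500302, plus strand) encode the 2 BMP ligands of iron control. *Bmp2* was at 11.3, 12.0, 8.86 and 5.71 CPM in LWT livers and at 12.3, 9.07, 7.94 and 10.3 CPM in LΔRbfox2 livers, with LWT liver 4 lowest and LΔRbfox2 liver 1 highest. Its log2 fold change was 0.07 (SE 0.26, 95% interval −0.47 to 0.67, edgeR adjusted *P* = 0.915), and it was 0.15 without LΔRbfox2 livers 3 and 4.

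*Bmp6* was at 2.95, 2.71, 2.85 and 2.23 CPM in LWT livers and at 2.06, 2.64, 1.40 and 1.21 CPM in LΔRbfox2 livers. LΔRbfox2 liver 2 lay inside the LWT range and the other 3 below it. The log2 fold change was −0.55 (SE 0.27, 95% interval −1.18 to 0.04, edgeR adjusted *P* = 0.521, exact permutation *P* = 0.0571 over 70 regroupings). Its unadjusted edgeR *P* of 0.0770 was the smallest of the 10 genes. Without LΔRbfox2 liver 2 the log2 fold change was −0.78, at an unadjusted edgeR *P* of 0.0146 and an adjusted *P* of 0.130, and without LΔRbfox2 livers 3 and 4 it was −0.22. *Bmp2* had no stable sign: without LWT liver 4 it was −0.11, and without LΔRbfox2 liver 1 it was −0.05. A difference between the changes of the 2 ligands was not tested.

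*Wnt2* (ENSMUSG00000010797, chr6:17988940-18030585, minus strand) and *Rspo3* (ENSMUSG00000019880, chr10:29452416-29535867, minus strand) encode a Wnt ligand and the R-spondin that amplifies Wnt signals by sparing the receptors from removal. *Wnt2* was at 1.02, 2.25, 1.71 and 0.668 CPM in LWT livers and at 0.708, 1.42, 2.21 and 2.32 CPM in LΔRbfox2 livers, from 29 to 112 counts a library. High and low livers occurred in both groups. On the log2 scale the fold change was 0.23 (SE 0.47, 95% interval −0.85 to 1.23, edgeR adjusted *P* = 0.827), and it turned to −0.44 without LΔRbfox2 livers 3 and 4.

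*Rspo3* was at 1.75, 3.13, 2.02 and 1.54 CPM in LWT livers and at 2.40, 2.05, 2.76 and 3.72 CPM in LΔRbfox2 livers. LΔRbfox2 liver 4 was the highest of the 8 and LWT liver 4 the lowest, and LWT liver 2 lay among the LΔRbfox2 livers. The log2 fold change was 0.36 (SE 0.28, 95% interval −0.28 to 0.99, edgeR adjusted *P* = 0.614), and 0.04 without LΔRbfox2 livers 3 and 4. It was 0.63 without LWT liver 2 and 0.18 without LΔRbfox2 liver 4.

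**Figure D2:**
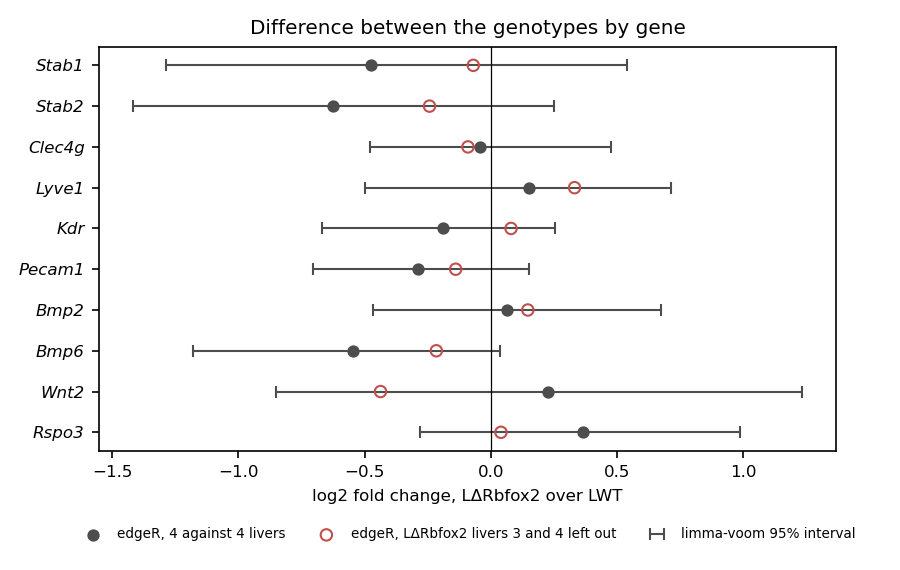
Log2 fold change of LΔRbfox2 over LWT livers for the 10 genes (filled points, edgeR, 4 against 4 livers) with limma-voom 95% intervals (bars), and the same from edgeR with LΔRbfox2 livers 3 and 4 left out (open points). Each interval includes 0, and the intervals of *Stab1*, *Stab2*, *Bmp6* and *Wnt2* reach beyond a change of 1 on the log2 scale.

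The intervals set what these livers leave possible. For *Clec4g*, *Kdr*, *Pecam1* and *Bmp2* they lay between −0.70, the lower bound of *Pecam1*, and 0.67, the upper bound of *Bmp2*, on the log2 scale, whereas that of *Wnt2* was the widest. Parts of 5 genes share exonic bases with a gene on the other strand: *Stab1* with *Nt5dc2* (112 bases), *Stab2* with *Gm16268* (141), *Clec4g* with *Gm16553* (146), *Bmp6* with *Txndc5* (224) and *Rspo3* with *Gm48159* (404). As the strand setting of the counting is not stated, reads in these stretches are uncertain.

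Per length, the genes were far from equal. Values are CPM (TMM-normalised) divided by exonic length in kilobases (RPKM) as the mean ± SD of 8 livers. *Clec4g* was highest, at 8.26 ± 1.62 RPKM, and *Bmp2* followed at 2.72 ± 0.627 RPKM, each above the next gene in 8 of 8 livers. *Lyve1* (1.88 ± 0.543), *Kdr* (1.6 ± 0.3002), *Stab2* (1.49 ± 0.698) and *Stab1* (1.47 ± 0.739 RPKM) came next, and neighbours in this order changed places between livers: *Lyve1* was above *Kdr* in 4 of 8, *Kdr* above *Stab2* in 5 and *Stab2* above *Stab1* in 4. *Pecam1* (1.03 ± 0.176), *Rspo3* (0.783 ± 0.239), *Wnt2* (0.682 ± 0.306) and *Bmp6* (0.578 ± 0.170 RPKM) were lowest, and none of these was above the next in more than 6 of 8 livers. Thus the transcript of the lectin LSECtin stood above those of both stabilins in these livers, and *Bmp2* above *Bmp6*.

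The ratio of 2 genes within a liver does not depend on how the library was scaled. It does keep the library's tilt with length where the genes differ in length, as *Stab1* and *Clec4g*, *Stab2* and *Rspo3*, or *Kdr* and *Bmp6* do. *Kdr* (9030 exonic bases) and *Bmp6* (3900) differ in GC content too, at 49.4% and 57.8%, so their ratio also keeps the tilt with GC content. Per kilobase, *Stab1* to *Stab2* stayed between 0.801 and 1.32 in the 8 livers, whereas *Stab1* to *Clec4g* ranged from 0.0816 to 0.368 and *Stab2* to *Rspo3* from 0.553 to 4.74. *Kdr* to *Bmp6* was 2.53, 2.42, 2.32 and 2.64 in LWT livers and 3.37, 2.77, 3.32 and 3.62 in LΔRbfox2 livers, so that the genotypes did not overlap. These ratios were chosen after their values were seen and were not tested. The share of other gene ratios without overlap was not computed, so the *Kdr* to *Bmp6* ratio is no result about the genotypes.

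Whether the 10 genes rise and fall together in whole liver was asked next, with the genotype means removed from log2 CPM so that a genotype difference could not make a correlation (n = 8 livers). Each correlation rests on the same 8 libraries. Of the 45 pairs, 30 were positive and 15 negative, with a median Pearson *r* of 0.198 and a range from −0.889 to 0.966. Over all 95987440 pairs of tested genes the median was −0.00145 and 49.9% were positive. An absolute *r* of at least 0.7 was reached by 24.4% of the pairs of the 10 genes and by 25.1% of all pairs. After adjustment over the 45 pairs, 0 passed, and 7 had an unadjusted exact permutation *P* under 0.05, where 0.00174 is the smallest that 576 arrangements can give. The share of all pairs of tested genes under that *P* was not computed, so the 7 have no background. For Spearman's rho, the adjusted exact permutation *P* values of the 45 pairs were 0.156 or more.

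No pair passed, so the values that follow describe these 8 livers. *Stab1* and *Stab2* correlated at *r* = 0.94 (exact permutation *P* = 0.00868, adjusted *P* = 0.130) and at a Spearman rho of 0.83 (exact permutation *P* = 0.0278), and at 0.87 without the 2 livers farthest from the median of *Stab1*. Their deviations were positive in LWT livers 1 and 4 and LΔRbfox2 livers 1 and 2 and negative in the other 4 livers. With each liver left out in turn, *r* stayed between 0.923 and 0.979, and without LΔRbfox2 livers 3 and 4 it was 0.984.

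The highest *r* of the 45 was that of *Kdr* and *Bmp6*. *Kdr* and *Bmp6* correlated at *r* = 0.97 (exact permutation *P* = 0.00521, adjusted *P* = 0.130) and gave the same order of the 8 deviations (Spearman rho = 1, exact permutation *P* = 0.00347). Without the 2 farthest livers *r* was 0.96, and without LΔRbfox2 livers 3 and 4 it was 0.82. *Kdr* and *Pecam1* had *r* = 0.80 (rho = 0.81, adjusted exact permutation *P* = 0.317) and *Pecam1* and *Bmp6* had *r* = 0.81 (rho = 0.81, adjusted exact permutation *P* = 0.293). With each liver left out in turn these stayed between 0.74 and 0.882 and between 0.77 and 0.858.

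*Clec4g* was positive with *Rspo3* and negative with the stabilins (*r* = −0.59 with *Stab1* and −0.60 with *Stab2*, adjusted exact permutation *P* = 0.430 and 0.317). *Clec4g* and *Rspo3* had *r* = 0.77 (rho = 0.79, adjusted exact permutation *P* = 0.293) and *Wnt2* and *Rspo3* had *r* = 0.77 (rho = 0.83, adjusted exact permutation *P* = 0.293). *Clec4g* and *Bmp2* reached 0.79 (rho = 0.64) and *Pecam1* and *Bmp2* 0.77 (rho = 0.55), but these rested on few livers: without the 2 farthest, *r* was 0.14 and 0.11. *Clec4g* and *Rspo3* gave 0.46 and *Wnt2* and *Rspo3* 0.87 on the same terms.

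Other pairs ran in opposite directions. *Stab2* and *Rspo3* had *r* = −0.89 (exact permutation *P* = 0.00868, adjusted *P* = 0.130), a rho of −0.88 (exact permutation *P* = 0.0104) and −0.92 without the 2 farthest livers. *Stab1* had *r* = −0.78 with *Rspo3* (rho = −0.81, adjusted exact permutation *P* = 0.293) and −0.73 with *Wnt2* (rho = −0.69, adjusted exact permutation *P* = 0.317). LWT liver 2 shows the contrast: it had the highest *Clec4g*, *Rspo3* and *Wnt2* of the LWT livers and the lowest *Stab1* and *Stab2*. LWT liver 4 had the lowest *Clec4g*, *Rspo3* and *Wnt2* of its group with the second highest *Stab1* and *Stab2*.

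The tilt of a library with gene length moved with several of these genes. With genotype means removed, the length slope correlated with *Stab2* at *r* = 0.91 and with *Stab1* at *r* = 0.88 (adjusted exact permutation *P* = 0.0232 for each over 10 genes; rho = 0.86 for each, adjusted exact permutation *P* = 0.0926 and 0.0695), and with *Rspo3* at −0.88 (adjusted exact permutation *P* = 0.0232; rho = −0.95, adjusted exact permutation *P* = 0.0347). Without the 2 livers of the farthest slopes these were 0.85, 0.85 and −0.87. *Clec4g* had −0.63 (adjusted exact permutation *P* = 0.0564, rho = −0.79) and the other 6 genes had adjusted exact permutation *P* values from 0.218 to 0.981. The stabilins have 10288 (*Stab1*) and 8757 (*Stab2*) exonic bases and *Rspo3* 3090, where the median tested gene has 4054, and *Kdr*, with 9030, had *r* = 0.68 and rho = 0.60 with the slope. The slope was fitted over the tested genes, these 10 among them, so long genes tend to rise with it and short ones to fall. The share of all tested genes with such *P* values was not computed, so these values do not single out the 10 genes. The part of this tilt in the stabilins' spread was not tested beyond the correction that follows.

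**Figure D3:**
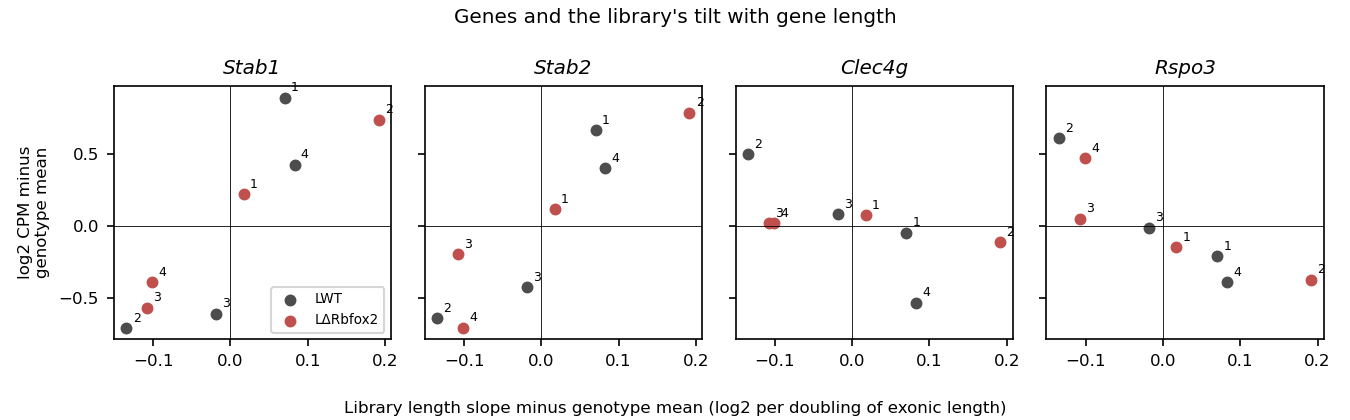
Log2 CPM of *Stab1*, *Stab2*, *Clec4g* and *Rspo3* minus the genotype mean (vertical) against the length slope of the library minus its genotype mean (horizontal, log2 per doubling of exonic length), with 1 point per liver, LWT grey and LΔRbfox2 red, labelled by replicate. The stabilins rise with the slope (*r* = 0.88 and 0.91) and *Clec4g* (−0.63) and *Rspo3* (−0.88) fall with it.

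A correction of each library for length kept some pairs and changed others. The median *r* of the 45 pairs was 0.378 after it, with 30 positive and 15 negative as before, and 0.236 with a GC correction added. *Stab1* and *Stab2* kept *r* = 0.88 and *Stab2* and *Rspo3* −0.84. *Clec4g* joined the endothelial pair: with *Pecam1* it went from 0.58 to 0.96 and with *Kdr* from 0.08 to 0.86 (adjusted exact permutation *P* = 0.0521 for each after correction), and *Kdr* and *Pecam1* reached 0.88. *Kdr* and *Bmp6* came down to 0.73, and *Stab1* and *Kdr* from 0.61 to −0.08. *Stab1* and *Rspo3* were at −0.68 after the length correction and at −0.41 with both corrections (adjusted exact permutation *P* = 0.726). The place of *Clec4g* depended on the correction.

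**Figure D4:**
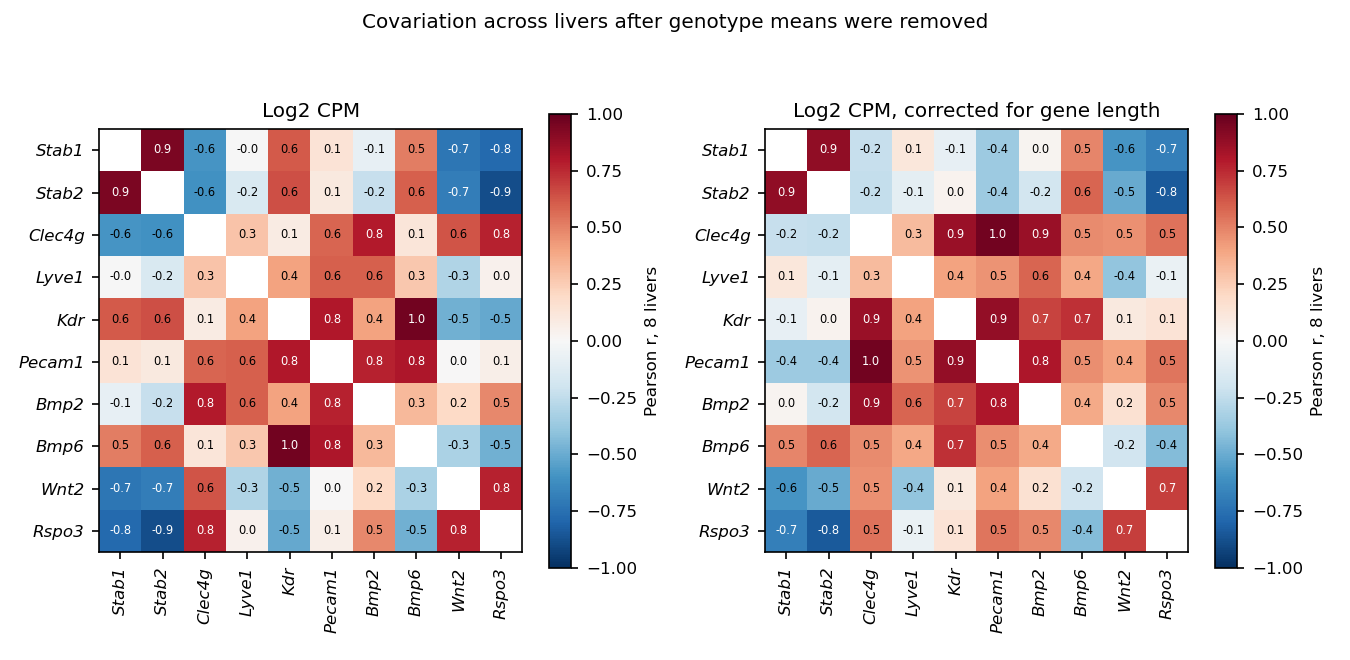
Pearson *r* between each pair of the 10 genes over 8 livers after genotype means were removed, from log2 CPM (left) and from log2 CPM corrected for gene length (right); red is positive and blue negative, and the diagonal is empty. *Stab1* and *Stab2* stay red together (0.94 and 0.88) and blue with *Rspo3* on both sides, and *Clec4g* turns red with *Kdr* (0.08 and 0.86) on the right.

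The genes were also set beside endothelial genes outside the 10, with no test because genes of 1 liver share a library. The median *r* of *Kdr*, *Bmp6* and *Pecam1* was 0.704, 0.741 and 0.675 with 12 other sinusoidal genes (such as *Ehd3*, *Dnase1l3* and *Aqp1*) and 0.701, 0.652 and 0.625 with 16 pan-endothelial genes. For *Stab1* and *Stab2* it was 0.0412 and 0.157 with the sinusoidal genes and 0.417 and 0.370 with the pan-endothelial genes. For *Clec4g* and *Lyve1* the pan-endothelial values were 0.224 and 0.308. *Wnt2* and *Rspo3* had −0.0331 and −0.0897 with the sinusoidal genes and −0.214 and −0.272 with the pan-endothelial genes. After the length correction *Clec4g* rose from 0.446 to 0.692 with the sinusoidal genes, and *Stab1* and *Stab2* were at −0.0493 and 0.118. *Wnt2* and *Rspo3* changed sign, to 0.209 and 0.0858 with the sinusoidal genes and to 0.214 and 0.0732 with the pan-endothelial genes. With the pan-endothelial genes *Stab1* came down to 0.00457 and *Stab2* to 0.204, and *Clec4g* rose to 0.557. With 5 red cell markers, whose genes are short (median 768 exonic bases), the median *r* was −0.717 for *Stab2* and 0.737 for *Rspo3*, and 0.164 and −0.0452 after the length correction.

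By the mean z-score of the 10 genes, the genes outside the lists most like them were, among 11252 genes with a mean of at least 1 CPM, *Ntn4* (*r* = 0.96), *Cyp4b1* (0.96), *Ptpn9* (0.94), *Naprt* (0.93), *Klhdc8a* (0.93), *Pcdh12* (0.93), *Vopp1* (0.92), *Mylip* (0.91), *Akap12* (0.90) and *Jcad* (0.90). The 5 least like were *Nr4a1* (−0.95), *Tfap4* (−0.95), *Nrbp1* (−0.94), *Map2k6* (−0.94) and *Bmf* (−0.94). After the length correction *Naprt* was at 0.48 and *Cyp4b1* at 0.73, and *Ntn4* at 0.98. These are the extremes of many correlations over 8 livers and have no test. The score itself correlated most with *Pecam1* (0.97), *Bmp2* (0.85), *Kdr* (0.79) and *Bmp6* (0.76), followed by *Clec4g* (0.61) and *Lyve1* (0.55). *Stab1*, *Stab2*, *Wnt2* and *Rspo3* correlated with it at 0.20, 0.14, 0.02 and 0.09. Each gene is part of the score, which raises these values.

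The other endothelial lists were lower in sign and held no called gene. Of 12 other sinusoidal genes, 11 were lower in LΔRbfox2 livers and 1 higher, with a median log2 fold change of −0.23. *Ehd3*, a membrane-remodelling protein of LSECs, had the smallest *P*: it was at 27.1 ± 4.75 CPM in LWT and 17.9 ± 4.4 CPM in LΔRbfox2 livers (SD, n = 4), with a log2 fold change of −0.60 (SE 0.21, edgeR adjusted *P* = 0.504). Of 16 pan-endothelial genes 12 were lower (median −0.20). *Erg*, an ETS factor of endothelial identity, was at 2.26 ± 0.371 and 1.58 ± 0.315 CPM (log2 fold change −0.51, edgeR adjusted *P* = 0.509). It was the 1 gene of this list whose genotypes did not overlap, beside 2.28% of all genes tested. Of 7 genes of larger vessels, 5 were lower (median −0.22), with *Plvap*, of endothelial diaphragms, at −0.51 (edgeR adjusted *P* = 0.504). Of 11 other endothelial signals 10 were lower (median −0.29), with *Nos3*, the endothelial nitric oxide synthase, at −0.51 (edgeR adjusted *P* = 0.560). At an unadjusted edgeR *P* under 0.05 these 4 lists had 1, 0, 1 and 0 genes, all lower. Of all 13856 genes tested, 254 were lower and 1102 higher at that *P*.

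The medians of these lists lay nearer 0 without LΔRbfox2 livers 3 and 4. Those of the sinusoidal, pan-endothelial, larger-vessel and other-signal lists were −0.0971, −0.0478, −0.0886 and −0.0878. *Ehd3* was then at −0.41, *Erg* at −0.43, *Nos3* at −0.23 and *Cdh5*, the endothelial cadherin, at −0.18 where it had been −0.50. In the summed level of the 16 pan-endothelial genes, LΔRbfox2 livers 3 and 4 were at 75.4 and 80.3 CPM, LΔRbfox2 livers 1 and 2 at 100 and 113, and the LWT livers from 93.4 to 123.

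**Figure D5:**
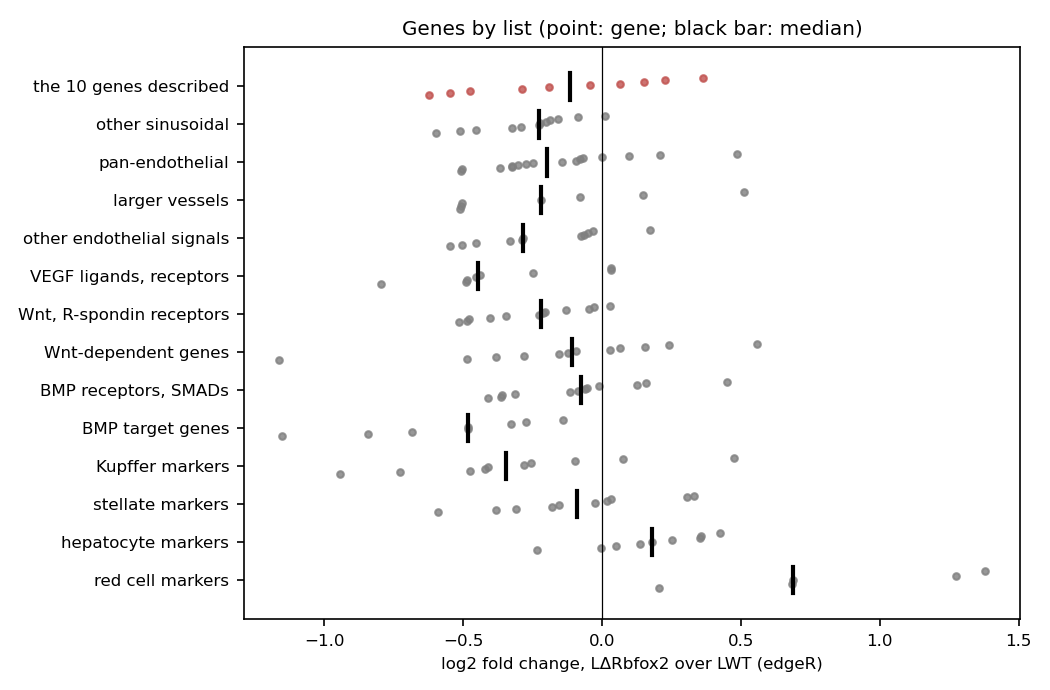
Log2 fold change of LΔRbfox2 over LWT livers (edgeR, horizontal) for each tested gene of 14 lists, with 1 point per gene and a black bar at the list's median; the 10 genes described are in red. The medians of the 10 genes and of the other sinusoidal, pan-endothelial and larger-vessel lists lie between −0.12 and −0.23, those of BMP target genes and VEGF genes at −0.48 and −0.45, and that of red cell markers at 0.69.

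Along the signalling pathways of these genes, receptors and targets were read from the same livers. Of 8 VEGF ligands and receptors other than *Kdr*, 6 were lower (median −0.45, and −0.138 without LΔRbfox2 livers 3 and 4). *Nrp1*, a VEGF co-receptor, was at 42.4 ± 2.91 CPM in LWT and 30.3 ± 5.73 CPM in LΔRbfox2 livers with no overlap, a log2 fold change of −0.48 (SE 0.17, edgeR adjusted *P* = 0.504), and at −0.68 without those livers. Of 12 Wnt and R-spondin receptors 11 were lower (median −0.22), with *Lrp6* at −0.48 (edgeR adjusted *P* = 0.544) and *Znrf3*, which removes Wnt receptors, at −0.52 (0.557). Without LΔRbfox2 livers 3 and 4 these were −0.17 and −0.19, and the median of the list was −0.106. Of 12 Wnt-dependent pericentral genes, 5 were higher and 7 lower (median −0.11, and −0.228 without LΔRbfox2 livers 3 and 4).

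*Slc1a2*, a glutamate transporter of pericentral hepatocytes, was the exception in size in the Wnt list. It was at 92.4, 68.6, 93.3 and 115 CPM in LWT livers and at 38.3, 46.5, 45.3 and 34.7 CPM in LΔRbfox2 livers, which did not overlap. Its log2 fold change was −1.16 (SE 0.19, edgeR adjusted *P* = 0.504; adjusted *P* = 0.000242 in DESeq2), and −1.14 without LΔRbfox2 livers 3 and 4.

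Of 12 BMP receptors, co-receptors and SMADs, 3 were higher and 9 lower (median −0.07), and *Tfr2*, the iron-sensing receptor of hepatocytes, was at −0.36 (edgeR adjusted *P* = 0.515), and at −0.22 without LΔRbfox2 livers 3 and 4. The 8 BMP target genes were all lower in sign (median −0.48, and −0.847 without LΔRbfox2 livers 3 and 4), beside 51.6% of all genes tested, and 3 of them had an unadjusted *P* under 0.05, where 254 of all 13856 genes were lower at that *P*. *Smad9*, a BMP-induced SMAD, was at 17.7, 13.1, 11.3 and 9.79 CPM in LWT livers and at 5.62, 6.14, 5.38 and 6.19 CPM in LΔRbfox2 livers, with no overlap and a log2 fold change of −1.15 (SE 0.21, edgeR adjusted *P* = 0.504; adjusted *P* = 0.00149 in DESeq2). The inhibitory SMADs *Smad6* (−0.84, SE 0.24) and *Smad7* (−0.68, SE 0.29) had the same edgeR adjusted *P* of 0.504. These values stood at −1.16, −0.74 and −0.84 without LΔRbfox2 livers 3 and 4, where the ligand *Bmp6* was at −0.22 and *Bmp2* at 0.15. Of the 8 targets, 2 had no overlap between the genotypes, beside 2.28% of all genes tested. *Hamp*, which encodes hepcidin, overlapped, at −0.33 with all livers (SE 0.39, edgeR adjusted *P* = 0.703) and from 312 to 1230 CPM. *Hamp2* (−0.14), *Id1* (−0.27) and *Id3* (−0.48) overlapped too, with edgeR adjusted *P* values from 0.731 to 0.876.

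Within genotypes, the ligands did not track these targets in a way that passed a test. Of 40 relations (*Wnt2* and *Rspo3* each with 12 Wnt-dependent genes, *Bmp2* and *Bmp6* each with 8 BMP targets), 20 were positive, 5 had an unadjusted exact permutation *P* under 0.05 and 0 passed after adjustment, also with the length correction. A share over all pairs of tested genes was not computed for the 5 either. The median *r* was 0.0752 for *Wnt2*, −0.279 for *Rspo3*, 0.239 for *Bmp2* and −0.215 for *Bmp6*. Named after their values were seen, the most positive were *Wnt2* with *Cyp2e1*, the ethanol-oxidising enzyme of pericentral hepatocytes (*r* = 0.88, rho = 0.86, adjusted exact permutation *P* = 0.208, 0.84 without the 2 farthest livers), and *Rspo3* with *Lect2* (*r* = 0.86, rho = 0.83, adjusted exact permutation *P* = 0.208, 0.72 without them). In that order, their *r* was 0.78 and 0.72 after the length correction, and 0.68 and 0.60 with the GC correction added. The most negative was *Rspo3* with *Slc1a2* (*r* = −0.88, rho = −0.79, adjusted exact permutation *P* = 0.208), which was −0.51 without the 2 farthest livers and 0.06 after the length correction. For rho the adjusted exact permutation *P* was 0.366 in each of these 3.

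Markers of other cells differed between these libraries too, and their part in the endothelial values was not tested. Summed Kupffer cell markers (10 of 10 tested, 8 lower in LΔRbfox2 livers) ranged from 95.6 to 168 CPM in LWT and from 54.2 to 110 CPM in LΔRbfox2 livers. *Csf1r* (−0.94, SE 0.27) and *Clec4f* (−0.73, SE 0.26), both macrophage genes, had an edgeR adjusted *P* of 0.504. Red cell markers (5 of 5 higher) ranged from 382 to 729 and from 627 to 1526 CPM, with *Hbb-bs* at a log2 fold change of 1.38 (SE 0.41), and of 0.59 without LΔRbfox2 livers 3 and 4. Summed stellate cell markers ranged from 103 to 196 and from 128 to 174 CPM, with 6 of 10 lower (median −0.09), and hepatocyte markers, with 7 of 9 higher (median 0.18), from 47698 to 69310 and from 53058 to 74238 CPM. Of 4 cholangiocyte markers tested, 4 were higher (median 0.53). Of the lymphatic markers, *Prox1*, which hepatocytes express too and which was at 63.7 ± 12.8 CPM in LWT livers, gives no lymphatic reading here, and *Pdpn* and *Mmrn1* did not pass the filter on low counts, and of 7 lymphocyte and neutrophil markers 1 passed, with a sum of at most 2.26 CPM in any liver.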

How the data were processed

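Per the study's methods and the submitters' processing notes, poly(A) RNA was sequenced as paired-end reads, aligned to GRCm38 with TopHat2 2.0.11 and counted per gene with featureCounts. The authors deposited these counts as whole numbers, without normalisation. The strand and multi-mapping settings of the counting are not given in the sources used here. Gene symbols, positions and exonic lengths came from GENCODE M21, which matched 45229 of 46078 identifiers, and 0 columns were left without a sample.

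The genotypes were compared in R 4.3.3 with edgeR 4.0.16 (filterByExpr with a minimum count of 10 and total of 15, TMM, glmQLFit and glmQLFTest, genotype as the only term), with Benjamini–Hochberg adjustment over all 13856 genes tested. Standard errors and intervals come from limma-voom (limma 3.58.1). Log2 CPM used a prior count of 2. Correlations used log2 CPM minus genotype means, with exact two-sided permutation within genotypes. DESeq2 1.42.0, limma-voom, other size factors and filters, robust estimation, a block for the replicate number, single livers left out in turn, and GC content and length corrections (lowess, span 0.3; 13806 genes with values) were alternatives. The 2 corrections together and the fit without LΔRbfox2 livers 3 and 4 were added after seeing the data. The tests were tried on simulated data. No 2 libraries of a genotype were copies (smallest chi-square per degree of freedom 106). With TMM factors left out, a total of 37482458 to 56177588 counts per liver puts 3 counts at 0.0534 to 0.08 CPM, which covers counting error only.

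The 10 genes and the lists were chosen with earlier results of these data known. From other lists, genes with the smallest unadjusted *P* are named (up to 4, and the 2 of most counts for cell markers), and outside them the 10 genes most and 5 least like the mean z-score. Same-numbered livers are different animals that share only a number.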

Additional observations from a re-analysis of the deposited data

Results flagged for a closer look

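In groups of 4 livers, 1 liver stood far from the other 3 in 4 of 102 groups examined, where chance gives about 5.1, and in 0 of the 20 groups of the 10 sinusoidal genes. Summed hepatocyte markers were at 53060 CPM in LΔRbfox2 liver 2, against 70700 to 74240 CPM in the other 3. Summed Kupffer cell markers were at 167.8 CPM in LWT liver 3, against 95.65 to 106.8 CPM in the others. *Nrp2* was at 13.13 CPM in LΔRbfox2 liver 2, against 5.874 to 6.921 CPM, and *Nkd1* at 1.52 CPM in LWT liver 4, against 1.28 to 1.31 CPM. LΔRbfox2 liver 2 is also the liver of its group with the highest *Stab1*, *Stab2*, *Kdr* and *Bmp6*.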

How the results depend on the processing

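The count of called genes among the 10 was 0 under 13 alternatives and with each liver left out, and the count over all genes was 0 except in DESeq2, which called 9 of 23751. Of 130 values of the 10 log2 fold changes under alternatives, 125 kept their sign. The exceptions were *Clec4g* with the replicate block (0.001524), *Lyve1* with both corrections (−0.002851) and with the block added to them (−0.0445), and *Kdr* (0.0798) and *Wnt2* (−0.44) without LΔRbfox2 livers 3 and 4. Sizes moved where signs did not. With the length and GC content corrections together, *Stab1* was at −0.09, *Stab2* at −0.42, *Kdr* at −0.08, *Pecam1* at −0.20 and *Bmp6* at −0.40. *Clec4g* was then at −0.12, *Bmp2* at 0.10, *Wnt2* at 0.14 and *Rspo3* at 0.18. The length correction alone gave −0.28 for *Stab1* and −0.47 for *Stab2*. With each liver left out, ranges that crossed 0 were −0.19 to 0.15 for *Clec4g*, −0.11 to 0.30 for *Lyve1*, −0.11 to 0.21 for *Bmp2* and −0.0057 to 0.55 for *Wnt2*. The median pairwise *r* rose from 0.198 to 0.378 with the length correction. *Stab1* and *Kdr* turned from 0.61 to −0.0814 with the length correction and −0.0938 with both, and *Clec4g* and *Kdr* ranged from −0.262 to 0.235 with each liver left out. Without LΔRbfox2 livers 3 and 4, the median log2 fold change was −0.138 for VEGF genes, −0.0421 for cholangiocyte markers (0.168 to 0.919 with each liver left out) and 0.299 for red cell markers, which had 0.249 with the length correction. The causes were not tested. The replicate block left 335 genes at an unadjusted *P* under 0.05, against 1356. Same-numbered livers had correlations of 0.127, −0.613, 0.122 and −0.514, and 1 of 8 livers correlated best with its own number. Without LΔRbfox2 liver 2, 3475 genes had an unadjusted *P* under 0.05, and without LΔRbfox2 livers 3 and 4, 171.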
